A study of Mus musculus with 66 samples.

Results

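The comparison set mice without the dopamine D2 receptor in the spiny neurons of the indirect pathway (iMSN-D2RKO) against wild-type (WT) mice in the hours of light that followed a single dose of cocaine. Of the 66 libraries of the series, 12 belonged to it by their labels, with 3 libraries of each genotype at ZT7 and 3 at ZT11. ZT counts the hours from lights on. Mice of both genotypes were given 20 mg/kg cocaine intraperitoneally at ZT3, and punches of the ventral striatum, here the nucleus accumbens (NAcc), were taken 4 h later at ZT7 or 8 h later at ZT11. The ZT3 libraries, labelled for both treatments and taken here as a baseline, were left out. All mice were males on a C57BL/6 background by the labels, C57BL/6J in the study's reporting summary, aged 3 to 5 months. iMSN-D2RKO mice were D2R flox/flox and carried D1R-CRE+/-, in which the promoter of the D1 receptor gene drives the recombinase. The floxed receptor gene is lost in indirect pathway neurons because their embryonic precursors use that promoter as well, so the loss dates from development and is not confined in time to the cocaine response. The labels call the controls wild type and do not say whether they carry floxed alleles or Cre. They also do not say whether a library is 1 mouse, so that p-values below measure the spread between libraries.

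The NAcc receives dopamine from the ventral tegmental area, and cocaine raises dopamine there by blocking its reuptake. Its projection neurons fall into a direct pathway class, which carries D1 receptors and raises cAMP in response to dopamine, and an indirect pathway class, which carries D2 receptors coupled to inhibitory G proteins and lowers it. Indirect pathway neurons also make enkephalin, from the gene Penk, and carry an adenosine receptor, encoded by Adora2a, which stimulates cAMP production and so works against the D2 receptor. Genes such as Nr4a1 that have binding sites for CREB, a transcription factor activated by cAMP signalling, are switched on within an hour of neuronal activity.

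Expression was given as FPKM, the fragments assigned to a gene normalised to the length of its transcript and to the number of mapped fragments, on a scale that the authors set across libraries. The FPKM of the 12 libraries summed to between 376165 and 413939, and from 12708 to 13015 genes of a library reached 1 FPKM. Read numbers were not analysed here, and a relative depth was estimated roughly from the values of genes detected in few libraries, where 1 fragment weighs more in a shallower library. It lay between 0.96 and 1.15 of the median library in 11 of the 12 libraries and at 0.756 in replicate 2 of iMSN-D2RKO at ZT7. That library stood apart in other ways too. Its median correlation with the other 11 libraries across genes was 0.92, where every other library reached 0.973 to 0.982. A principal component analysis of the deviations from group means put 43.6% of their variance on its first component, and 13 of the 66 libraries had scores from 44.3 upward there while the others stayed at or below 15.1. Replicate 2 of iMSN-D2RKO at ZT7 scored 47.6 and was the only one of the 13 among the 12 libraries compared here. The other 2 libraries of its group scored -1.9 and -10.1, and the remaining 9 libraries lay between -16.6 and -9.3. Results are therefore given with and without this library.

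The tissue carried the markers of striatal projection neurons in all 12 libraries. Ppp1r1b, which encodes the dopamine-regulated phosphatase inhibitor DARPP-32, lay between 874 and 1791 FPKM. Of the other cell types that a punch can hold, oligodendrocyte markers summed to 2440.0 to 6528 FPKM in WT and 2791 to 4231 in iMSN-D2RKO, mostly Mbp, the myelin basic protein gene. Cortical and other glutamatergic neuron markers, led by the vesicular glutamate transporter gene Slc17a7, summed to 98.4 to 357 FPKM in WT and 115 to 337 in iMSN-D2RKO. Ependyma and choroid plexus markers reached 487 FPKM in replicate 1 of WT at ZT11 and 68 to 125 in the other 11 libraries. The ranges of both genotypes overlapped for all 3 sums. In punches of mixed cells, fewer cells of a type and less RNA per cell cannot be told apart.

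Genotypes were compared on log2(FPKM + 1), on which differences of weakly expressed genes are smaller than on FPKM itself, with limma, a linear model that borrows information on spread across genes, and with time point as a factor. In all, 13805 of 24138 genes reached 1 FPKM in at least 1 of the 12 libraries and were tested, or 57.2%. No gene passed an adjusted p-value of 0.05 (Benjamini-Hochberg; background 0%), and the smallest adjusted p was 0.458. At an unadjusted p under 0.05 there were 1407 genes, 10.2% of those tested, of which 886 (6.42%) were higher in iMSN-D2RKO and 521 (3.77%) lower. The 1407 became 697, 864 or 915 without replicate 1, 2 or 3 of WT at ZT7, 772 without replicate 1 of iMSN-D2RKO at ZT11, 566 in the fit of all 66 libraries and 2394 with library weights. The median log2 difference over all genes was 0.03. The share of higher genes among the 1407 depended on scale: it was 63% as deposited, 63.2% without the library that stands apart, and 40.3% of the corresponding genes after the libraries were scaled to equal medians. In 62 genes, 0.449% of those tested, the 6 libraries of one genotype did not overlap with the 6 of the other. iMSN-D2RKO lay above WT in 26 of them and below in 36.

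Most of the unadjusted differences came from ZT7. At that time point 3500 genes (25.4%) had an unadjusted p under 0.05, 2397 higher (17.4%) and 1103 lower (7.99%), with no adjusted call and a smallest adjusted p of 0.137 in limma. At ZT11 there were 141 genes (1.02%), no adjusted call and a smallest adjusted p of 0.671. These counts depended on single libraries. At ZT7 there were 2175 genes without replicate 1 of WT at ZT7, 5288 without replicate 3 of iMSN-D2RKO at ZT7 and 2576 without the library that stands apart. At ZT11 there were 397 without the library that stands apart and 227 without replicate 2 of iMSN-D2RKO at ZT11. The direction at ZT7 also depended on scale, with 68.5% of its genes higher as deposited and 48% after scaling to equal medians. The difference between both time points was itself tested, and no gene passed (1036 genes, 7.5%, at unadjusted p, with 5.31% positive and 2.19% negative; smallest adjusted p 0.568). With 1 library left out its count ran from 483 (without replicate 3 of iMSN-D2RKO at ZT11) to 2868 (without replicate 3 of iMSN-D2RKO at ZT7). The effect of time itself, ZT11 against ZT7 over both genotypes, had no adjusted call either, and at an unadjusted p under 0.05 6.14% of genes were higher at ZT11 and 10.6% lower (smallest adjusted p 0.0845). The library that stands apart is 1 of the 3 iMSN-D2RKO libraries of ZT7. Within 9 groups outside this comparison, the other 12 set-apart libraries differed from their group mates, and the size of that difference was known for each gene. Across the 13805 genes it correlated with the genotype difference at ZT7 at r = 0.741 and with that at ZT11 at r = 0.0584. Of the 3500 genes, 93.9% had the same sign in both, against 80.3% of all genes. Without the library, r at ZT7 was 0.385 and the additive comparison held 1520 genes at an unadjusted p under 0.05 (960 higher), again with no adjusted call. Without replicate 3 of that group instead, which leaves the set-apart library as 1 of 2, limma called 1911 genes at ZT7, 1358 of them higher, and with any other of the 12 libraries left out it called at most 1 gene there.

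**Figure D1:**
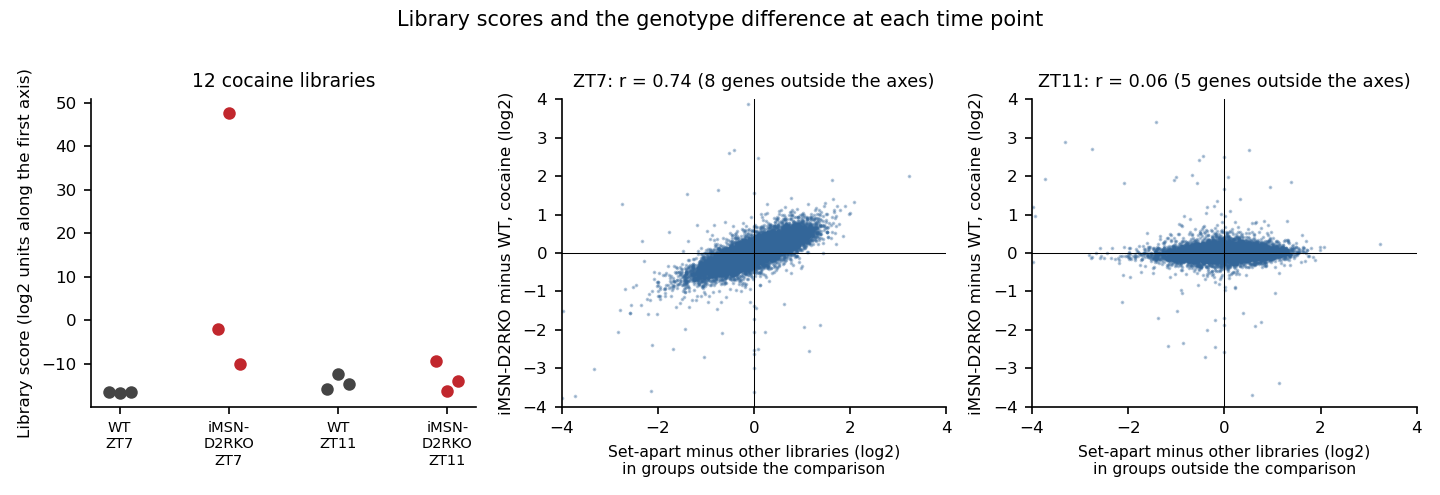
Left, score of each of the 12 cocaine libraries along the first axis of differences within groups (log2 units), where 1 iMSN-D2RKO library of ZT7 (replicate 2) sits at 47.6 and the other 11 at or below -1.9. Middle and right, genotype difference of each gene (log2) at ZT7 and ZT11 against the difference between set-apart and other libraries (log2) in groups outside the comparison, with a slope visible at ZT7 (r = 0.741) and none at ZT11 (r = 0.0584).

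Drd2, the gene of the deleted receptor (chromosome 9 from 49340627 to 49408177 of mm10, plus strand), did not separate the genotypes. It was at 131, 166 and 119.7 FPKM in WT at ZT7 and 118, 145 and 121 at ZT11. In iMSN-D2RKO the values were 129, 229 and 118 FPKM at ZT7 and 90.8, 120.0 and 87.9 at ZT11. The highest value of all came from the library that stands apart, and the 2 lowest from iMSN-D2RKO at ZT11. The log2 difference was -0.11 ± 0.18 (SE; limma unadjusted p = 0.532, adjusted p = 0.747). Without the set-apart library it was -0.27 ± 0.11 (unadjusted p = 0.0315, adjusted p = 0.429). A gene-level FPKM also counts exons outside the deleted part and D2 receptors of other cells, so it does not test the labels. Drd1, the receptor gene of the direct pathway, had a mean of 93.5 ± 15.4 FPKM in WT and 109 ± 29.9 in iMSN-D2RKO (SD, n = 6). Its log2 difference was 0.19 ± 0.17 with all libraries and 0.32 ± 0.13 without the set-apart one (limma adjusted p = 0.561 and 0.429).

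Penk was higher at ZT7. WT libraries held 1223, 1836 and 1043 FPKM at ZT7 and 1223, 1317 and 1187 at ZT11. iMSN-D2RKO libraries held 2589, 2658 and 2426 FPKM at ZT7 and 1966, 1211 and 1411 at ZT11. The 3 iMSN-D2RKO libraries of ZT7 thus lay above every WT library, while at ZT11 the groups overlapped. The log2 difference was 0.61 ± 0.18 over both times, 0.94 at ZT7 and 0.27 at ZT11 (limma unadjusted p = 0.0047, 0.00114 and 0.238), and none of these passed adjustment. Without the set-apart library the difference over both times was 0.56 ± 0.18. In saline, with no library in common, it was 1.03, or 0.65 without replicate 1 of iMSN-D2RKO at ZT7 in saline, which held 9282 FPKM of Penk. The FPKM of that saline library summed to 690048, against 371897 to 410697 in the other 11 of the saline comparison, so saline differences of named genes are also given without it where that moved them by over 1.5 times.

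Adora2a, the adenosine receptor gene, had a difference of opposite sign. It ranged from 188 to 312 FPKM in WT (median 227) and from 87.7 to 205 in iMSN-D2RKO (median 169). The lowest value belonged to the library that stands apart, and the genotypes overlapped between 188 and 205 FPKM. The log2 difference was -0.57 ± 0.20 (limma unadjusted p = 0.0145, adjusted p = 0.458) and -0.38 ± 0.12 without that library. In saline it was -0.10 (-0.16 without the library of high FPKM sum). Adora2a, the potassium channel gene Kcnd1 and Gabrd, which encodes the delta subunit of extrasynaptic GABA-A receptors, are the 3 genes that the study followed as targets of the nuclear receptor PPARgamma. Gabrd ranged from 104 to 128 FPKM in WT (median 115) and from 51.2 to 107 in iMSN-D2RKO (median 89.9). Only 1 of the 6 iMSN-D2RKO libraries reached the WT range. Its log2 difference was -0.46 ± 0.14 (unadjusted p = 0.00756) and -0.33 without the set-apart library. For Kcnd1 the WT libraries lay between 4.5 and 5.32 FPKM, and the iMSN-D2RKO libraries between 3.07 and 4.84, for a difference of -0.23 ± 0.08 (limma unadjusted p = 0.0177) or -0.17 without the set-apart library. All 3 were lower at an unadjusted p, against 3.77% of all genes, and none passed adjustment. The study had chosen them on these samples, so they are not independent evidence of a direction. In the other groups, set-apart libraries were lower in all 3 (-0.88, -0.79 and -0.23, log2), and in saline the genotype differences of Gabrd and Kcnd1 were -0.03 and -0.10. Without the saline library of high FPKM sum that of Gabrd was -0.19 (limma unadjusted p = 0.0913). The gene of PPARgamma itself, Pparg, stayed between 0.101 and 0.46 FPKM in all 12 libraries and was not tested.

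**Figure D2:**
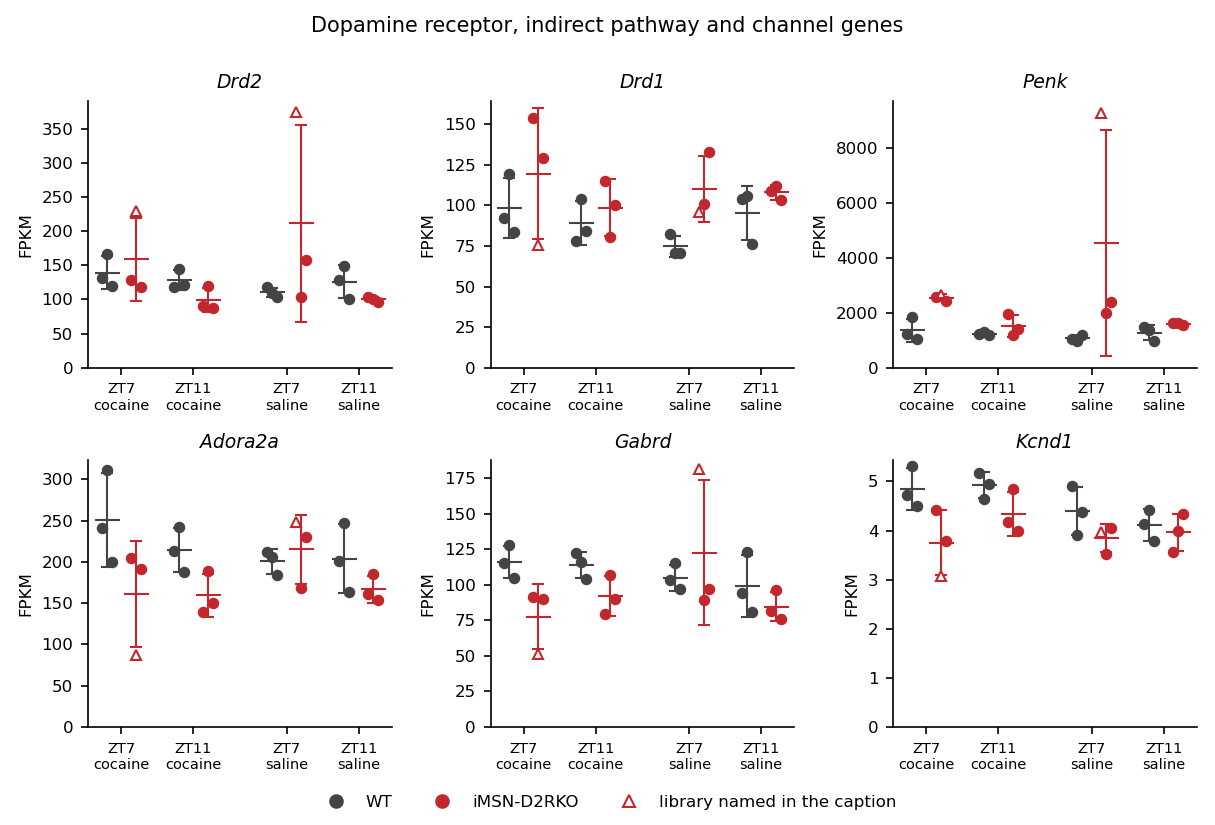
FPKM of 6 genes in each light-hour library, WT in grey and iMSN-D2RKO in red, after cocaine and after saline at ZT7 and ZT11; bars give mean ± SD of 3 libraries, and open triangles mark replicate 2 of iMSN-D2RKO at ZT7 in cocaine and replicate 1 of iMSN-D2RKO at ZT7 in saline. Penk is above WT in all 3 iMSN-D2RKO cocaine libraries of ZT7, and Adora2a, Gabrd and Kcnd1 have their lowest cocaine value in the triangle of ZT7.

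By the naming rule, the 6 genes of smallest p in each direction with a mean of at least 1 FPKM were read out in full, though none was called. Nr4a1 had the largest difference of them on log2(FPKM + 1), while Irak3, at lower levels, had the larger ratio of means (2.27 against 1.92). It encodes an orphan nuclear receptor and immediate early gene product (chromosome 15 from 101254269 to 101274795, plus strand). WT libraries had 36, 19.2 and 16 FPKM at ZT7 and 17.5, 16.1 and 31.8 at ZT11. iMSN-D2RKO libraries had 41.8, 37.4 and 54.5 at ZT7 and 48.8, 39.1 and 41.2 at ZT11. All 6 iMSN-D2RKO libraries were above all 6 WT libraries, with the closest pair at 36 and 37.4 FPKM. Means were 22.8 ± 8.81 and 43.8 ± 6.53 FPKM (SD, n = 6), a ratio of 1.92. The log2 difference of 0.98 ± 0.20 was about equal at ZT7 (0.95) and ZT11 (1.01), with a limma unadjusted p of 0.000417 and an adjusted p of 0.458. It was 1.03 without the set-apart library, and set-apart libraries of other groups differed by -0.06 in this gene.

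The promoter of Nr4a1 is shown because this gene kept its difference in cocaine and saline and is a textbook CREB target. RefSeq (GRCm38.p6, the assembly also called mm10) gives the following 250 bases before the start of its transcript, chr15:101266596-101266845 on the plus strand, with copies of the CREB half-site TGACG, or CGTCA when read on the other strand, in capitals. The same window of Chga, chr12:102554691-102554940 on the plus strand, is set beside it as that of another gene whose genotypes did not overlap.
Nr4a1: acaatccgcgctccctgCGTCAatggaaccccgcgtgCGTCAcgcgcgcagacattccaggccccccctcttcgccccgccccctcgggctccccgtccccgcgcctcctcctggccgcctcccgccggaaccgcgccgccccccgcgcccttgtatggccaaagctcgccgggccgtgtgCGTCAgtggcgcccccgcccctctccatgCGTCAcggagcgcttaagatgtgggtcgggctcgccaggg
Chga: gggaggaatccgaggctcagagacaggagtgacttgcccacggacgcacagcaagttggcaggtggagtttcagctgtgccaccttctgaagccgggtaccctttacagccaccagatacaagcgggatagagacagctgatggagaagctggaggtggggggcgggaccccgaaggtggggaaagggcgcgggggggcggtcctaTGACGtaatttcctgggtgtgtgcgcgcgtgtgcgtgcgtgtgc
Nr4a1 has 4 copies, all as CGTCA, whose first bases lie 233, 213, 69 and 40 bases before the start. Chga has 1, as TGACG, 44 bases before the start. At least 1 copy on either strand is found in 17.8% of 32851 RefSeq promoter windows of this length and at least 4 copies in 0.137%. No copy was found in the windows of Tekt5, Irak3, Inhba, Hcrtr2, Dusp14, Nxf7 and Drd2, which were searched likewise. The genotypes of Tekt5 and Irak3 did not overlap either. No window of this length was at hand for Anxa3, Snx31, Fst, Kcng1, Ifi27l2a and Penk, so these were not searched. These are matches of letters, and binding was not measured in this comparison.

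Tekt5, which encodes a tektin, a structural protein of ciliary microtubules, had the smallest p of all genes. Its values ran from 3.92 to 6.48 FPKM in WT (median 5.54) and from 6.74 to 10.3 in iMSN-D2RKO (median 8.73). The groups did not overlap, the log2 difference was 0.60 ± 0.10 (limma unadjusted p = 4.09e-05, adjusted p = 0.458), and it was 0.58 without the set-apart library. Without replicate 2 of WT at ZT11, Tekt5 passed with an adjusted p of 0.0497 in limma, the 1 call of the additive comparison in 12 fits that left out a library each. Chga encodes chromogranin A of dense-core vesicles, which store neuropeptides. It ran from 64 to 86.7 FPKM in WT (median 77.8) and from 96 to 122 in iMSN-D2RKO (median 98.6), again without overlap, for a difference of 0.41 ± 0.09 or 0.35 without the set-apart library. Irak3, an inhibitor of Toll-like receptor signalling, was at 0.492 to 1.08 FPKM in WT and 1.31 to 2.7 in iMSN-D2RKO, for a difference of 0.65 ± 0.13, or 1.11 with a pseudocount of 0.1. These levels are close to the minimum of 1 FPKM set for testing. Anxa3, an annexin that binds membranes in the presence of calcium, lay between 4.81 and 6.34 FPKM in WT (median 5.37) and between 5.39 and 11.3 in iMSN-D2RKO (median 8.69). Only 1 iMSN-D2RKO library, replicate 2 of ZT11 at 5.39 FPKM, lay inside the WT range. Its difference was 0.55 ± 0.13 (limma unadjusted p = 0.000899). Rab3c, a small GTPase of synaptic vesicles, differed by 0.35 ± 0.08, with 1 of the iMSN-D2RKO libraries inside the WT range. For these 5 genes the differences without the set-apart library lay between 0.33 and 0.64.

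Of the 6 genes lower in iMSN-D2RKO, Kcng1, Isyna1, Rab42, Tinagl1, the joined entry of Tmsb15b1, Tmsb15b2 and Tmsb15l, and Rpl37, all had an adjusted p of 0.458 in limma. Kcng1 encodes a modifying subunit of voltage-gated potassium channels. It was at 13.9, 15.7 and 11.9 FPKM in WT and 8.07, 9.64 and 8.64 in iMSN-D2RKO at ZT7, and at 14.4, 14.9 and 16.6 in WT and 10.2, 15.3 and 11.8 in iMSN-D2RKO at ZT11. The groups were apart at ZT7 and overlapped at ZT11 through replicate 2 of iMSN-D2RKO, and the log2 difference was -0.45 ± 0.11 (-0.46 without the set-apart library). Isyna1, the enzyme that makes inositol phosphate from glucose phosphate, lay between 47.2 and 56.7 FPKM in WT (median 49.5) and between 38.7 and 46.1 in iMSN-D2RKO (median 40.3). These ranges did not overlap, for a difference of -0.29 ± 0.07. Rab42, a small GTPase, was at 2.4 to 2.8 FPKM in WT and 0.976 to 2.39 in iMSN-D2RKO (-0.50 ± 0.11). Tinagl1, a matrix protein, was at 4.26 to 5.96 FPKM in WT and 3.24 to 4.1 in iMSN-D2RKO (-0.36 ± 0.09). The thymosin entry differed by -0.30 ± 0.07 without overlap, but joins near-identical genes whose reads cannot be assigned to 1 of them. Rpl37, a ribosomal protein gene with many pseudogenes, differed by -0.55 ± 0.12, and in other groups set-apart libraries were 1.19 lower in it, the same sign as its difference here (-0.47 without the set-apart library). When the library score was removed with slopes estimated in the other 54 libraries, an alternative chosen after the data were seen, the difference was -0.15 for Isyna1, -0.14 for the thymosin entry, -0.25 for Rpl37 and -0.24 for Tinagl1. Among the genes above it was 0.21 for Rab3c, -0.26 for Gabrd and -0.35 for Adora2a, against 1.01 for Nr4a1 and 0.56 for Tekt5.

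**Figure D3:**
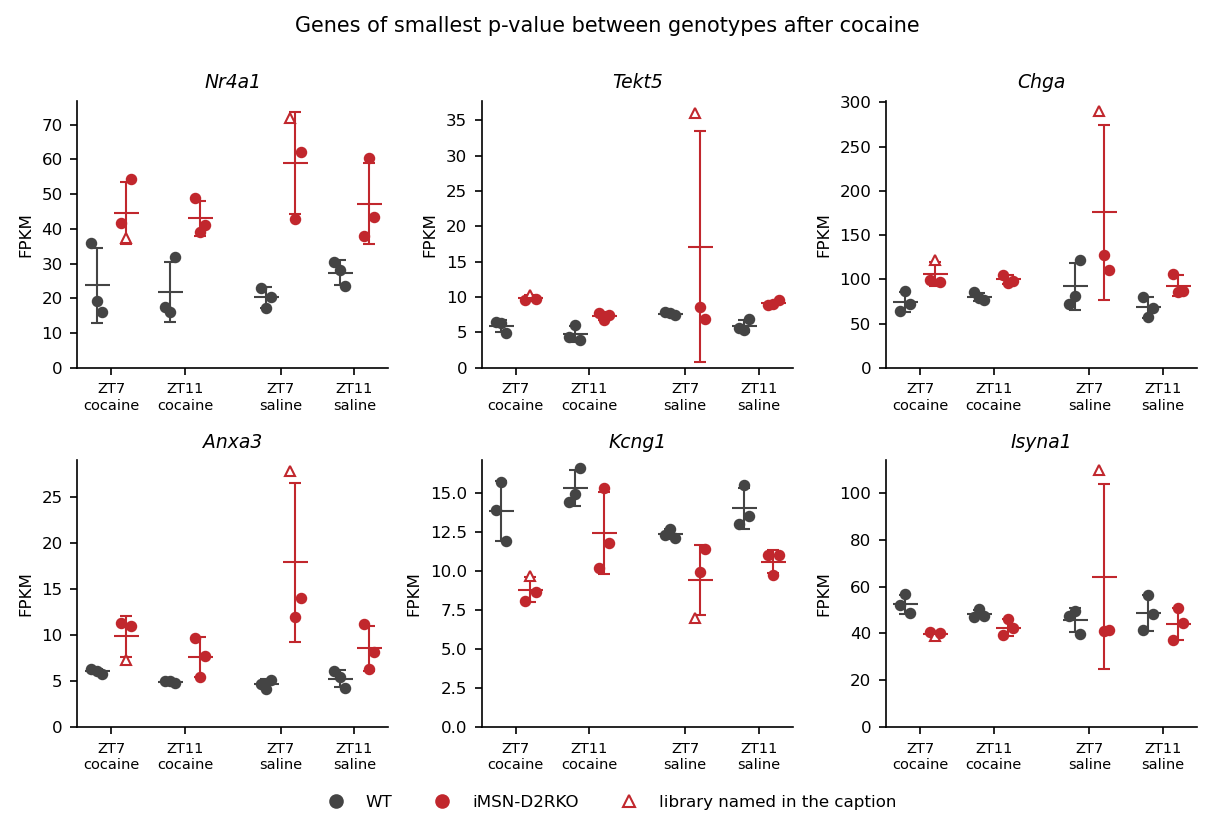
FPKM of 6 genes among those of smallest p, WT in grey and iMSN-D2RKO in red, after cocaine and after saline at ZT7 and ZT11; bars give mean ± SD of 3 libraries, and open triangles mark replicate 2 of iMSN-D2RKO at ZT7 in cocaine and replicate 1 of iMSN-D2RKO at ZT7 in saline. After cocaine, all iMSN-D2RKO libraries are above WT for Nr4a1, Tekt5 and Chga and below WT for Isyna1, while the saline triangle sets the spread of its group for Tekt5, Chga, Anxa3 and Isyna1.

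At ZT7 alone the genes of smallest p were 4930447C04Rik (0.93, log2), Rab42 (-0.78), Polr2k (1.27), Ltc4s (-1.11) and Pisd-ps2 (-1.27), none with an adjusted call in limma. Polr2k encodes a small subunit shared by the nuclear RNA polymerases. It was at 0.981, 1.99 and 1.74 FPKM in WT and 4.25, 6.61 and 4.66 in iMSN-D2RKO at ZT7. At ZT11 its values were 1.98, 1.63 and 1.7 in WT and 2.51, 2.18 and 1.38 in iMSN-D2RKO. The ZT7 groups were far apart and the ZT11 groups overlapped. Ltc4s encodes leukotriene C4 synthase, an enzyme of arachidonate metabolism. Its values at ZT7 were 16.5, 17.7 and 13.5 FPKM in WT and 8.81, 5.17 and 6.85 in iMSN-D2RKO. At ZT11 they were 9.08, 13 and 9.55 FPKM against 8.63, 8.99 and 8.2. The genotypes did not overlap at either time, with a smaller gap at ZT11 (-0.25), and set-apart libraries of other groups were lower in it (-0.94). Its difference at ZT7 was -0.60 with the library score removed. At ZT11 alone the genes of smallest p were 2610507I01Rik (1.71), Ifi27l2a (-1.05), Tcf7 (-0.50), the thymosin entry and Tekt5 (0.54). 2610507I01Rik was at 0.638, 0.737 and 0.553 FPKM in WT and 3.64, 6.57 and 3.41 in iMSN-D2RKO at ZT11, and overlapped at ZT7. Ifi27l2a, an interferon-induced gene, was at 4.82, 5.71 and 5.05 FPKM in WT and 1.38, 2.76 and 2.0 in iMSN-D2RKO at ZT11. Tcf7 encodes a transcription factor of Wnt signalling, and its genotypes did not overlap over both times (6.5 to 7.82 FPKM in WT, 4.32 to 6.28 in iMSN-D2RKO). The genes of smallest p in the difference between both times were 4930447C04Rik, Snapc3, the joined entry of Gm5512 and Rmnd1, Snora70 and Polr2k, each with an adjusted p of 0.568. Snora70 is a small nucleolar RNA, which poly(A) libraries sample poorly.

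The lists of genes for striatal signalling were compared with all genes tested, whose median log2 difference was 0.03 and of which 10.2% had an unadjusted p under 0.05. None of 32 lists held a gene with an adjusted call, and their medians lay between -0.46 and 0.14. Of 549 list members tested, 3 did not overlap between genotypes, namely Nr4a1, Gnas and Maob, against 0.449% of all genes. Of 10 dopamine receptor and handling genes, Maoa and Maob were higher at an unadjusted p. They encode the monoamine oxidases that break down dopamine, and their means were 8.45 and 9.61 FPKM in WT and 10.5 and 12.6 in iMSN-D2RKO (limma unadjusted p = 0.00317 and 0.0247). The set-apart library was the highest in both, at 13.3 and 19.2 FPKM, and without it the differences were 0.23 and 0.20, against 0.28 and 0.33 with it. For Maob the closest values of both genotypes were equal when rounded, at 10.5 FPKM. Of 14 indirect pathway genes, Penk was higher and Adora2a, Gpr52 and Plxdc1 were lower (28.6%, median -0.05). Gpr52 encodes an orphan receptor that stimulates cAMP production and differed by -0.20, and Plxdc1 by -0.54. Of 14 direct pathway genes none had an unadjusted p under 0.05, and without the set-apart library Drd1 did (0.32, limma unadjusted p = 0.0339). Tac1, the substance P gene of that pathway, was at 219 to 368 FPKM in WT and 179 to 310.3 in iMSN-D2RKO, and Pdyn, which encodes dynorphin, at 59.6 to 98.3 and 45.3 to 84.7.

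Of 26 neuropeptide and opioid genes, Penk, Nts, Cartpt and Npy1r were higher at an unadjusted p and none lower (15.4%, median 0.13, or 0.01 without the set-apart library). Nts encodes neurotensin, a peptide that modulates dopamine transmission. WT libraries had 8.52, 4.92 and 3.89 FPKM at ZT7 and 8.88, 6.85 and 8.85 at ZT11, and iMSN-D2RKO libraries 11.6, 30.4 and 12.7 at ZT7 and 19, 5.93 and 8.91 at ZT11. The value of 30.4 FPKM came from the set-apart library, and the log2 difference was 0.86 ± 0.33, or 0.61 without it (limma unadjusted p = 0.0224 and 0.0449). Cartpt encodes CART, the cocaine- and amphetamine-regulated transcript. It ranged from 7.06 to 18.7 FPKM in WT (median 12.4) and from 14.1 to 54 in iMSN-D2RKO (median 19), with the highest value at ZT11 in replicate 1. Its difference was 0.84 ± 0.30 (0.89 without the set-apart library). Nts, Cartpt and Nnat are also markers of the ventral striatum that were higher here (3 of 12, or 25% against 10.2% of all genes, median 0.05). Without the set-apart library, 3 of the 12 were higher and 1 lower at an unadjusted p, and the median was -0.06. The summed FPKM of these 12 markers was 277 to 446 in WT and 353 to 596 in iMSN-D2RKO, highest in replicate 1 of iMSN-D2RKO at ZT11, and in all 12 saline libraries none was higher and 6 were lower at an unadjusted p (median -0.54). The part of these markers, or of where a punch was placed, in the peptide values was not tested.

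Of 37 genes of the cAMP pathway, Gnas, Rapgef4 and Pde1c were higher and Crtc1 lower at an unadjusted p (10.8%, near the 10.2% of all genes). Gnas encodes the stimulatory G protein alpha subunit. It was at 488, 414 and 557 FPKM in WT and 566, 865 and 619 in iMSN-D2RKO at ZT7, and at 549, 461 and 548 against 659, 576 and 679.7 at ZT11. All 6 iMSN-D2RKO libraries exceeded all 6 WT libraries, though the closest pair, 557 and 566 FPKM, differed little. Its log2 difference was 0.39 ± 0.12, or 0.30 without the set-apart library. Rapgef4, a cAMP-activated exchange factor, differed by 0.35, Pde1c, a phosphodiesterase that breaks down cyclic nucleotides, by 0.51, and Crtc1, a coactivator of CREB, by -0.26. Of 34 immediate early genes, Nr4a1 and Inhba were higher at an unadjusted p (5.88%, median 0.08). Without the set-apart library Fosl2 and Cyr61 joined them (median 0.12). Other early genes overlapped between genotypes. Egr1 was at 58 to 95.4 FPKM in WT and 50.2 to 109 in iMSN-D2RKO, Nr4a3 at 1.18 to 4.67 and 2.84 to 6.06, and Fos at 1.34 to 3.64 and 1.9 to 16. The value of 16 FPKM of Fos was from replicate 2 of iMSN-D2RKO at ZT11. In saline, 11 of the 34 were higher at an unadjusted p and none lower (median 0.20), where 5.7% of all genes had such a p, and so were 4 of 11 cortical neuron markers (median 0.26). Without the saline library of high FPKM sum, Fezf2 of those markers differed by 0.60 (limma unadjusted p = 0.0385). Emx1, Neurod2 and Neurod6 then had limma unadjusted p-values of 0.0507, 0.0642 and 0.0759. Of the early genes, Jun and Egr1 then had 0.00809 and 0.0224, and Fos and Arc 0.206 and 0.23. Also higher at a limma unadjusted p under 0.05 were Nptx2, Gadd45b, Nr4a1, Inhba, Fosl2, Klf4, Klf2, Trib1, Nr4a3, Ier2, Dusp6 and Nfil3. Npas4, Junb, Egr2, Egr3, Bdnf and Homer1 were among those that were not. Of all 13805 genes, 1133 then had such a p, against 787 with that library. The part of the cortical neuron markers in the early gene values was not tested.

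Of 18 activin and follistatin genes, Inhba and Fst were higher at an unadjusted p and none lower (11.1%, median -0.0037). Inhba encodes the subunit of activin A, a secreted ligand induced by neuronal activity, and Fst its inhibitor follistatin. Inhba was at 3.96, 7.62 and 3.24 FPKM in WT and 11.8, 5.26 and 9.25 in iMSN-D2RKO at ZT7, and at 3.18, 4.82 and 3.6 against 6.54, 4.08 and 5.81 at ZT11. Replicate 2 was the lowest iMSN-D2RKO library at both times. Its log2 difference was 0.57 ± 0.21 (limma unadjusted p = 0.019), or 0.68 without the set-apart library. Fst was at 1.67, 2.08 and 1.28 FPKM in WT and 4.05, 2.69 and 4.68 in iMSN-D2RKO at ZT7, and at 2.1, 1.49 and 1.21 against 2.65, 1.39 and 2.21 at ZT11. The genotypes were apart at ZT7 (0.83) and overlapped at ZT11 (0.24), for 0.54 ± 0.17 over both times.

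Of 21 clock genes, Nr1d1 alone had an unadjusted p under 0.05 (median 0.01). It encodes REV-ERB alpha, a repressor of the clock gene Arntl. It was at 86.8, 91 and 84.7 FPKM in WT and 58.5, 67.4 and 57 in iMSN-D2RKO at ZT7, and at 79.7, 80.5 and 80.4 against 67.3, 86.3 and 73.5 at ZT11. At ZT7 each iMSN-D2RKO library was below each WT library, and at ZT11 2 of 3 were. The difference was -0.30 ± 0.10 over both times and -0.52 at ZT7 (limma unadjusted p = 0.0076 and 0.000463). Dbp, a clock-controlled transcription factor gene, differed by -0.26 ± 0.12 (limma unadjusted p = 0.0567), or -0.16 without the set-apart library. Cry1 differed by 0.10, Arntl by 0.01 and Per1 by -0.07, within the spread of the libraries.

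Genes of lipid signalling had unadjusted differences in both directions. Of 13 PPAR and coactivator genes tested, none had an unadjusted p under 0.05 (median 0.05). Of 25 classical PPAR targets, Acadl and Acsl1, enzymes of fatty acid use, were higher and Pltp, the phospholipid transfer protein gene, lower (12%, median 0.01). Of 22 prostaglandin and arachidonate genes, Ptgs2 and Ptgr2 were higher and Pla2g6 and Ptger1 lower (18.2%, median -0.03). Ptgs2 encodes cyclooxygenase 2, the induced enzyme of prostaglandin synthesis, and was at 0.522 to 1.25 FPKM in WT and 0.818 to 1.24 in iMSN-D2RKO (0.23 ± 0.10, limma unadjusted p = 0.0462). Ltc4s was not on that list. Of 22 glucocorticoid-related genes, Cdkn1a and Mt2 were lower and none higher, and of 10 endocannabinoid genes Daglb was lower.

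Among GABA receptor subunits (median 0.14), Gabrg1 and Gabra3 were higher and Gabrd lower at an unadjusted p. For Gabrg1 and Gabra3 the set-apart library had the highest value, at 17 and 34.8 FPKM against at most 10.8 and 21.5 in the other 11. Set-apart libraries in other groups had a median difference of 0.65 over the subunits, and without the library the median here was 0.04. Of 66 potassium channel genes, Kcnh3, Kcnh4, Kcng1 and Kcnd1 were lower at an unadjusted p and none higher (6.06%, median -0.03). Kcnh4 differed by -0.46 and Kcnh3 by -0.41, with -0.34 and -0.24 without the set-apart library. Of 36 glutamate receptor genes, Gria1 and Gria4, subunits of AMPA receptors, were higher and Grm4 and Shisa7 lower (11.1%, median 0.03). Of 35 heat-shock chaperones, Hspd1, St13, Hspa9 and Fkbp4 were higher and Hspa1b and Hspb1 lower (17.1%, median 0.13, or 0.05 without the set-apart library). Of 17 RGS genes, Rgs2, which shortens G protein signals, was the only one at an unadjusted p under 0.05 and was higher. Of 21 genes shared by spiny neurons, Gad2 and Pde1c were higher. Among the marker lists of other cells, Aif1 was higher, as 1 of 10 microglia markers (10%, median -0.08), of which only 3 had a positive difference. Cldn5 was lower, as 1 of 11 markers of endothelium and pericytes (9.09%, median 0.02), of which 7 were positive. Slc18a3 of cholinergic interneurons was lower, as 1 of 13 interneuron markers (7.69%, median -0.03). None of these shares exceeded the 10.2% of all genes. Without the set-apart library Cldn5 had a limma unadjusted p of 0.0517. The lists of oligodendrocytes, their precursors, astrocytes, ependyma, meninges, cortical neurons, neighbouring regions and dorsal striatum had no gene at an unadjusted p under 0.05, with medians between -0.14 and 0.08.

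Saline-injected mice of the same hours provided 12 other libraries and thus a view of the same genotype difference without cocaine. In them, 787 genes (5.7%) had an unadjusted p under 0.05, 3.3% of genes higher and 2.4% lower, and none passed adjustment (smallest adjusted p 0.0635 in limma), or 5 without the library whose FPKM sum stands apart. Of the 1407 genes from cocaine, 71.9% had the same sign in saline, against 52.5% of all other genes, and 112 (7.96%) had the same sign and an unadjusted p under 0.05, against 3.62%. Without that saline library, the same-sign shares were 87.8% and 59.3%. Then 186 genes (13.2%, against 5.18%) had the same sign and an unadjusted p under 0.05. Across all 13805 genes r was 0.248, or 0.298 without it. In the dark hours after cocaine 54.8% of the 1407 genes and 39.2% of the others had the same sign (r = -0.165), and at ZT3 57.2% and 43.4% (r = -0.0354). Genes are not independent of each other, so these shares describe the libraries and carry no p-value. The interaction of genotype and treatment, which tests whether the genotypes differ otherwise after cocaine than after saline, called no gene (564 genes, 4.09%, at unadjusted p; smallest adjusted p 0.697). The genes of smallest p in it were Tinagl1 (-0.78), the inducible chaperone gene Hspa1a (-0.50), Coch (-0.96), Tle6 (-0.70) and Khdrbs2 (0.72). Tinagl1 was lower in iMSN-D2RKO after cocaine (-0.36) and at 0.41 in saline, or 0.25 without the library of high FPKM sum. Coch and Tle6 differed by -0.02 each after cocaine (0.05 and 0.09 without the set-apart library) and by 0.95 and 0.68 in saline.

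Nr4a1 was also apart in saline. It was at 23.1, 17.2 and 20.5 FPKM in WT and 71.9, 42.8 and 62.2 in iMSN-D2RKO at ZT7, and at 30.5, 28.2 and 23.6 against 38, 60.3 and 43.3 at ZT11. Each saline iMSN-D2RKO library was above each saline WT library, for a log2 difference of 1.11 (0.998 without the library of high FPKM sum). A fit of all 24 light-hour libraries, with the genotype difference averaged over both treatments, was added after these values had been seen. It called 10 of 13805 genes in limma, 8 higher and 2 lower in iMSN-D2RKO, and is not independent of the cocaine comparison. Nr4a1 (1.04 ± 0.14, adjusted p = 0.00434) and Anxa3 (0.84 ± 0.12, adjusted p = 0.0105) were called in each of the 24 fits that left out 1 library. The other higher genes were Hcrtr2 (0.48), an orexin receptor gene, Snx31 (0.72), Dusp14 (0.61), a gene of a phosphatase that acts on MAP kinases, Fst (0.57), Nxf7 (0.64) and Irak3 (0.44). The lower genes were Kcng1 (-0.41) and Ifi27l2a (-0.61). Calls of these 8 held in 5 to 23 of the 24 fits, which called between 2 genes (without replicate 1 of iMSN-D2RKO at ZT11 in cocaine) and 38 (without replicate 2 of iMSN-D2RKO at ZT7 in saline). Ifi27l2a was not called in limma without the set-apart library (adjusted p = 0.0553) or with a pseudocount of 0.1 (0.0919). Irak3 was not called with median scaling (limma adjusted p = 0.0544). Hcrtr2, Snx31 and Nxf7 had means under 1 FPKM and reached the minimum for testing, 1 FPKM among the 12 cocaine libraries, in iMSN-D2RKO only, so that their being tested depended on the genotype in which they were high. In cocaine, replicate 2 of iMSN-D2RKO was the lowest iMSN-D2RKO library of Snx31 at ZT7 and ZT11 (0.102 and 0.257 FPKM, against 0.924 to 1.45 in the other 4 and 0.0852 to 0.325 in WT).

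**Figure D4:**
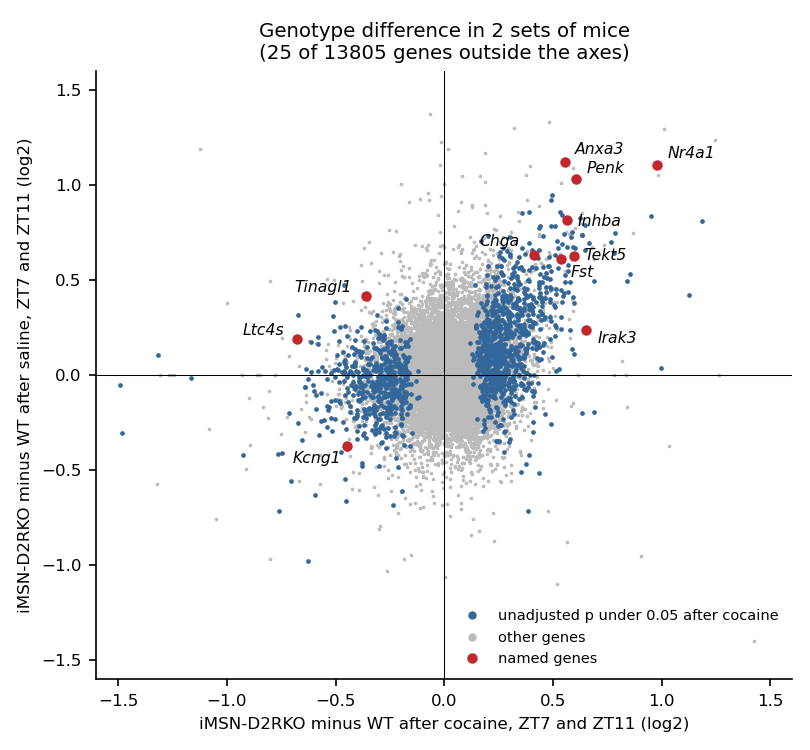
Each point is a gene, with its genotype difference after cocaine on the horizontal axis and after saline on the vertical axis (both log2, iMSN-D2RKO minus WT, 12 libraries each); blue points have an unadjusted p under 0.05 after cocaine and red points are named. Of the blue and red genes with such a p, 71.9% have the same sign on both axes. Nr4a1 sits near 1 on both, and Tinagl1 and Ltc4s have opposite signs. For Ltc4s the saline difference was 0.04 ± 0.14 (SE) without replicate 1 of iMSN-D2RKO at ZT7 in saline.

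Later in the same cocaine series, 18 libraries of ZT15, ZT19 and ZT23 gave 6 adjusted calls in limma (0.0435% of genes), all higher in iMSN-D2RKO, namely Anxa3, Rln3, Pdlim3, Fst, Snx31 and Inhba. At an unadjusted p under 0.05 there were 305 genes (2.21%), with 0.884% of genes higher and 1.33% lower. Without the set-apart libraries of those hours there were 616. Rln3 and Snx31 reached the minimum for testing in iMSN-D2RKO only. The light-hour differences of the 6 were 0.55, 0.19, 0.38, 0.54, 0.50 and 0.57, in the same order. Without replicate 2 of iMSN-D2RKO at ZT7 they were 0.63, 0.37, 0.56, 0.58, 0.63 and 0.68. Anxa3 in the dark hours lay between 5.31 and 7.65 FPKM in WT and between 10.1 and 15.1 in iMSN-D2RKO, without overlap among 18 libraries (0.84, adjusted p = 0.000297). Fst lay between 1.62 and 2.89 FPKM in WT and between 2.58 and 5.84 in iMSN-D2RKO, and the highest WT library exceeded the lowest of iMSN-D2RKO only. Without the set-apart libraries of those hours, 2 of the 6 calls remained, Fst and Anxa3, while the differences of the other 4 were 1.51 for Inhba, 1.12 for Rln3, 0.95 for Pdlim3 and 0.70 for Snx31, against 1.24, 1.01, 0.98 and 0.77 with them. Nr4a1 differed by 0.11 in the dark hours, where its median was 73.9 FPKM in WT and 73.5 in iMSN-D2RKO, against 18.3 and 41.5 in the light hours. At ZT3, the hour of the injection, Nr4a1 differed by -1.22. That comparison of 3 against 3 libraries called 1 gene in limma, Snord17 (0.00724% of genes), and had 7.21% of genes at an unadjusted p under 0.05. Whether the genotype difference was another in the light than in the dark was tested directly, and no gene passed (381 genes, 2.76%, at unadjusted p; smallest adjusted p 0.786). Tekt5 had the smallest p, with 0.60 in the light and -0.11 in the dark, followed by Kcns2, Fhod3, Rnf26 and Lyrm7. Without the set-apart libraries this test called 48 genes, with the higher difference in the light hours for 43 of them. It then had 1745 genes at an unadjusted p under 0.05.

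Genes that surround the recombined or driving loci were read out separately, because a strain's flanking DNA can differ from that of WT. Within 10 Mb of Drd2 on chromosome 9, none of 173 tested genes was called and 13 had an unadjusted p under 0.05 (7.51%, against 10.2% of all genes). Within 10 Mb of Drd1 on chromosome 13 the numbers were 0 of 122 and 10 (8.2%). The insertion site of the D1R-CRE transgene was not analysed here.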

How the data were processed

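Poly(A) RNA of NAcc punches was sequenced from 66 libraries in 22 groups of 3. Per the labels and the study's methods, the authors demultiplexed reads with CASAVA 1.8.2, aligned them to mm10 with TopHat and Bowtie, and made the deposited FPKM values per gene with Cufflinks and Cuffnorm, which scales libraries to each other. The annotation release and the scaling option were not given in the sources used here. The table held 72 columns because each of the 6 ZT3 libraries is listed for both treatments, and these copies were used once. Entries that join several genes were kept as deposited. 1 item is not reported here.

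Groups came from the labels. Values were analysed as log2(FPKM + 1) with limma 3.58.1 in R 4.3.3 (moderated variance with an intensity trend, Benjamini-Hochberg over all 13805 genes of at least 1 FPKM in at least 1 of the 12 libraries). The genotype effects of the light hours after cocaine, the light hours after saline and the dark hours had ZT as a factor. That of ZT3 had genotype alone. Genotype by treatment was an interaction term with ZT within each treatment. ZT7, ZT11, genotype by time, the light-phase term and the 24-library fit were contrasts of group means. FPKM are not counts, so no count model or counting interval was used, and depth is known only roughly. The script was tested on simulated data. Named were the genes that the study names, the 6 of smallest p in each direction with a mean of at least 1 FPKM, called members of the gene lists with up to 4 others of high expression, and the 5 of smallest p in ZT7, ZT11 and the interactions. As no list member was called, list members at an unadjusted p under 0.05 were named after their values were seen, as were the genes called in the 24-library or dark-hour fits. The members and the lists were chosen with earlier results of these data known. Gene positions are from GENCODE vM21 and promoters from RefSeq. Alternatives were another pseudocount, no filter, median scaling, a replicate block, outlier removal by Dixon's test, a fit of all 66 libraries, each library left out, and, added after seeing the data, library weights and removal of the library score.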

Additional observations from a re-analysis of the deposited data

Results flagged for a closer look

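Snapc3, which encodes a subunit of the complex that starts transcription of small nuclear RNA genes, had genotype differences of opposite direction at both times after cocaine. At ZT7 it was at 9.92, 10.9 and 9.36 FPKM in WT and 14.9, 17.0 and 13.5 in iMSN-D2RKO. At ZT11 it was at 10.8, 10.4 and 10.4 FPKM in WT and 10.1, 9.24 and 8.22 in iMSN-D2RKO. All 3 iMSN-D2RKO libraries were above WT at ZT7 and all 3 below WT at ZT11. Snapc3 had been named for its small p in the difference between both times, in these same libraries. The reversal is thus not independent of that choice, and its share among all genes was not counted. The difference at ZT7 minus that at ZT11 was 0.73 on the log2 scale, which did not pass adjustment in the limma interaction test (adjusted p = 0.568). The highest value came from the library that stands apart, and set-apart libraries of other groups were 0.49 higher in this gene. Without that library the term was 0.65, and with the library score removed it was 0.53.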

How the results depend on the processing

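The absence of adjusted calls in the genotype effect after cocaine held under 9 alternatives, and leaving out each of the 12 libraries gave 0 to 1 call (Tekt5). Its number of genes at an unadjusted p under 0.05 ranged from 566 in the fit of all 66 libraries to 2394 with library weights, and from 697 to 1819 with 1 library left out. At ZT7 there were 3 calls without the filter, 2 after Dixon's test, 8 with library weights, 1 without the set-apart library, and 0 to 1911 with 1 library left out. At ZT11 there were 2 after Dixon's test and 0 in all fits with 1 library left out. The genotype by time term had 1 call without the filter, 1 after Dixon's test and 0 to 1 with 1 library left out. The effect of time had 2 calls after Dixon's test, 10 without the set-apart library, 1206 with library weights, 81 with the library score removed and 0 to 10 with 1 library left out. In saline there was 1 call with a pseudocount of 0.1, 1 with median scaling and 5 without replicate 1 of iMSN-D2RKO at ZT7. Without the set-apart libraries, the dark hours had 2 calls, the light-phase term 48 and the fit of both treatments 19; the last had 2 to 38 with 1 library left out. The causes were not tested. Replicate numbers did not pair the samples (correlations of deviations from -0.34 to 0.126, 1 of 6 over 0.1), and a replicate block gave 0 calls in the genotype effect, at ZT7, at ZT11 and in genotype by time, with 957 genes at an unadjusted p under 0.05 in the genotype effect. Differences of named genes numbered 47, some genes counting in more than 1 comparison, and each was tried under 21 alternatives, or under 3 for the interactions with treatment and light phase. Of these 807 alternative values, 779 moved by less than the spread and 28 moved further. Under the alternatives run for them, signs differed for Arntl and Per1, whose differences were near 0. Other genes in the text were tried without the set-apart library alone. Fits with 3 libraries a group, and values without read counts, limit what can be detected.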
